A study of Homo sapiens with 10 samples.

Results

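Where the heterochromatin mark H3K9me3 and the promoter mark H3K4me3 lay along the chromosomes of HCT116 cells was described from their peak lists, by counting the peaks of each mark in fixed bins of 1 Mb. Every H3K9me3 peak (16414) and every H3K4me3 peak (17181) on chromosomes 1 to 22 and X was taken, which makes 33595 of the 59094 peaks in the 4 lists of the series. A peak was counted in the bin that holds its summit, a gene in the bin that holds its midpoint, and bins start at the first base of a chromosome, on GRCh38. Of 3043 bins, the 2924 that held a RefSeq gene or a peak of any list were used.

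HCT116 is an established human colorectal carcinoma line, and all samples are labelled WT, with no treatment named. In CUT&Tag an antibody brings a transposase to the chromatin that carries its target, and the enzyme tags the DNA beside it. H3K9me3 was profiled in 3 samples and H3K4me3 in 1, with 100000 to 200000 cells for each, beside 3 samples each for POLR1A and POLR2A, the largest subunits of RNA polymerases I and II. Each target came as 1 peak list without values per replicate, so that no replicate error exists for any value and nothing was tested between samples. Because the cells were profiled in bulk, both marks on the same chromatin and each mark in different cells cannot be told apart.

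H3K4me3 is laid down at the starts of active and poised genes by SET1 and MLL complexes, most readily where CG dinucleotides are dense and unmethylated. H3K9me3 is written by SETDB1 and the SUV39H enzymes, is bound by HP1 proteins, and covers satellite repeats, transposable elements, zinc finger gene clusters and silent gene-poor stretches. Both marks are usually described as opposed, because factors that recruit one tend to exclude the other.

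Promoter sequence was set beside the marks, and the examples printed below do not separate them by CG number. RefSeq windows of 300 bases, 250 before and 50 after the annotated start, were matched for 15712 of 19821 protein-coding genes (22012 windows). The motif searched was CG, which reads the same on both strands and was in 98.1% of all windows, with a median of 21 per window. Below are 2 windows from each of 3 situations, taken from those with the highest fold enrichment (the authors' ratio of signal to local background at the summit) apart from windows that shared a peak, chosen after the values were seen. Positions are on GRCh38.p14, letters run 5′ to 3′ on the gene's strand, and capitals mark each CG.

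MBTD1 and NT5C3A had both marks at the window. MBTD1, which encodes a reader of methylated histones, is on the minus strand of chromosome 17 (chr17:51260000-51260299) with 18 CG, an H3K9me3 fold of 10.1 and an H3K4me3 fold of 12.2. NT5C3A, which encodes a pyrimidine nucleotidase, is on the minus strand of chromosome 7 (chr7:33062727-33063026) with 30 CG, an H3K9me3 fold of 8.76 and an H3K4me3 fold of 11.95.
MBTD1: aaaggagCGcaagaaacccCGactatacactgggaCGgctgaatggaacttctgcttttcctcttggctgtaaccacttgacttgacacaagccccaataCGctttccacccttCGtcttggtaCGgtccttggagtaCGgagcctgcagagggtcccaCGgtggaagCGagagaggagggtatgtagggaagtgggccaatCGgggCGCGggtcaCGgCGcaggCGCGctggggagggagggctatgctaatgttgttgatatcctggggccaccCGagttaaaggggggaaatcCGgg
NT5C3A: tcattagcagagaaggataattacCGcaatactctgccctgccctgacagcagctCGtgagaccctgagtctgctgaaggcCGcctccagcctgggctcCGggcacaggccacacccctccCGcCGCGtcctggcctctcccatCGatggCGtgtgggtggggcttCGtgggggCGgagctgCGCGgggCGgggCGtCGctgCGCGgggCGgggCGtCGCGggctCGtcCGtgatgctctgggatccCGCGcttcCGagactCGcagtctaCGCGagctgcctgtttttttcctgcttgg

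CTNND2 and TAF11L3 had H3K9me3 at the window and lay in bins without any H3K4me3 peak. CTNND2, the delta catenin gene, is on the minus strand of chromosome 5 (chr5:11904397-11904696) with 34 CG and an H3K9me3 fold of 5.61. TAF11L3 is on the plus strand of the same chromosome (chr5:17518117-17518416) with 12 CG and a fold of 6.45, and it belongs to a row of near-identical copies, so that its assignment is uncertain.
CTNND2: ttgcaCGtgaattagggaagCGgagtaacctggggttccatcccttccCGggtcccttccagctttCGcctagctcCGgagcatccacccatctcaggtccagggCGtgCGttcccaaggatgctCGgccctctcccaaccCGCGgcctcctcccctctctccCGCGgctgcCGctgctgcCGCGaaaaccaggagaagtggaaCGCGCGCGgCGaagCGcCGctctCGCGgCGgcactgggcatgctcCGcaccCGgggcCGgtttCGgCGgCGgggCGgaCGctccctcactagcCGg
TAF11L3: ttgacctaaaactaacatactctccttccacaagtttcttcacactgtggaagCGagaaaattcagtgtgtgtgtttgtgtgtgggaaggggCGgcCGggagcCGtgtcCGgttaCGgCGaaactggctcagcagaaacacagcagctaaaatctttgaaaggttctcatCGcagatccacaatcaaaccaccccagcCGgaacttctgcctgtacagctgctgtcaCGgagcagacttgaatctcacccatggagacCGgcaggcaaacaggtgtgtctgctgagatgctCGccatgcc

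ALMS1 and NDUFS4 had H3K4me3 at the window and lay in bins without any H3K9me3 peak. ALMS1, a centrosome and ciliary gene, is on the plus strand of chromosome 2 (chr2:73385508-73385807) with 37 CG and an H3K4me3 fold of 23.03. NDUFS4, a subunit gene of respiratory complex I, is on the plus strand of chromosome 5 (chr5:53560389-53560688) with 10 CG and a fold of 22.8.
ALMS1: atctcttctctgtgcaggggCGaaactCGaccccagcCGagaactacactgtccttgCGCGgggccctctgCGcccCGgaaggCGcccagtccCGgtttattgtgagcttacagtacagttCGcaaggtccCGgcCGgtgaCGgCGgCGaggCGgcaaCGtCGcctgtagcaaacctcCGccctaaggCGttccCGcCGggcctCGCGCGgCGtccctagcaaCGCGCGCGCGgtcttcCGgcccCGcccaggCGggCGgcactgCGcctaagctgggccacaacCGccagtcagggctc
NDUFS4: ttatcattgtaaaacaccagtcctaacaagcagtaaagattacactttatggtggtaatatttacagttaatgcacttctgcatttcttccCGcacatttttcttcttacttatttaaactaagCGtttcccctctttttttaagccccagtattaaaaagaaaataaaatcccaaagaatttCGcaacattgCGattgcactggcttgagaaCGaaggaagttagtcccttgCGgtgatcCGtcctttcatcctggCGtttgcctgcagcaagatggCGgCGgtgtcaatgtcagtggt

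Over all windows, CG number went with H3K4me3 and not in the same way with H3K9me3. The 9991 windows with only H3K4me3 held a median of 27 CG, the 51 windows with only H3K9me3 held 10, and the 11736 windows with neither held 9. Windows with both marks (234) held 21.5, close to the median of all windows. H3K4me3 was present at 2.75% of windows with 0 to 4 CG, 13.99% with 5 to 9, 50.4% with 10 to 19 and 67.6% with 20 to 60. H3K9me3 was rare in every class and most frequent at windows with 10 to 19 CG (2.77%), against 0.250% at 0 to 4 and 1.29% at 20 to 60. In bins that held H3K9me3 without H3K4me3 the median window had 9 CG, against 22 in bins with both marks and 17 in bins with H3K4me3 alone. These bins also held 249 windows with 20 CG or more, of which CTNND2 is an example.

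At the scale of 1 Mb the marks shared most of the genome. Both were present in 2040 of 2924 bins (69.8%, exact 95% interval 68.1 to 71.4, counting error only). H3K9me3 stood without H3K4me3 in 714 bins (24.4%), H3K4me3 without H3K9me3 in 136 (4.65%), and neither in 34 (1.16%). H3K9me3 was in 94.2% of all bins and H3K4me3 in 74.4%, and the share with both was 0.995 times their product. With shares this high the ratio has little room to move, so presence by bin could not show exclusion at this size. The peaks themselves were divided unevenly. Bins with both marks held 95.6% of H3K4me3 peaks. They held 63.9% of H3K9me3 peaks, and the remaining 36.1% lay in bins that held no H3K4me3 peak at all.

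Gene content and polymerase differed between these classes. Bins with H3K9me3 alone held a median of 1 protein-coding gene and together 852 of 19821 (4.3%), while bins with both marks and bins with H3K4me3 alone each held a median of 6. H3K9me3 itself was denser where it stood alone, with a median of 7 peaks per bin against 4 in bins with both. POLR2A peaks were present in 27.9% of bins with H3K9me3 alone, 98.0% of bins with both marks and 94.1% of bins with H3K4me3 alone. POLR1A peaks were present in 12.9%, 67.3% and 48.5% of the same classes. In the 34 bins with neither mark the shares were 32.4% for POLR2A and 14.7% for POLR1A. Low polymerase was thus shared by both classes without H3K4me3. Among bins with 3 to 5 protein-coding genes, the mean POLR2A count was 0.80 ± 1.44 (SD, n = 50 bins) with H3K9me3 alone, 5.83 ± 4.19 (n = 572) with both and 4.38 ± 3.83 (n = 42) with H3K4me3 alone.

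H3K4me3 was the more concentrated mark. Its count per bin averaged 5.88 ± 7.92 (SD, n = 2924 bins) and reached 70, against 5.61 ± 4.85 and 41 for H3K9me3. The fullest 292 bins for each quantity held 42.0% of H3K4me3 peaks, 38.7% of protein-coding genes and 29.7% of H3K9me3 peaks. Across bins, H3K4me3 count followed the number of protein-coding genes (Spearman's rho 0.83) and the POLR2A count (0.92). H3K9me3 count ran weakly the other way, with rho −0.23 against genes, −0.11 against POLR2A and −0.15 against H3K4me3 (Pearson's r −0.07). These are descriptions over 2924 bins that share their lists and, between neighbours, their content: counts in adjacent bins had rho 0.50 for H3K4me3 and 0.28 for H3K9me3.

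**Figure D1:**
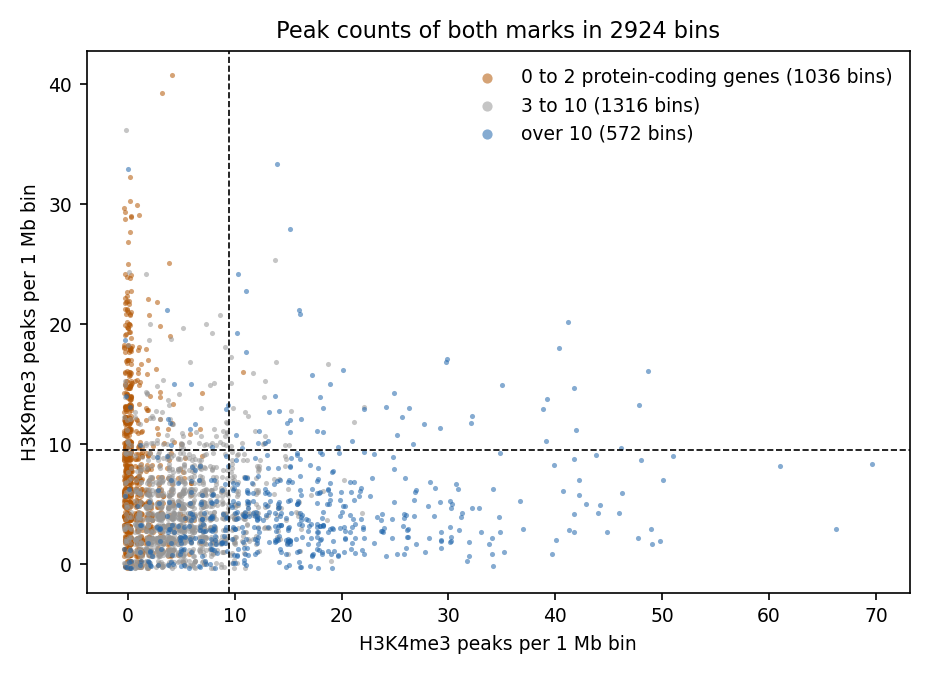
Each point is a 1 Mb bin, with its number of H3K4me3 peaks on the horizontal axis and of H3K9me3 peaks on the vertical axis, moved by a small random amount so that equal counts show, and coloured by its number of protein-coding genes. The dashed lines mark 10 peaks; 77 bins lie above both, and bins with the most H3K9me3 mostly stand near 0 H3K4me3.

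The weak opposition of the counts did not hold among gene-rich bins. In the 1036 bins with 2 protein-coding genes or fewer, rho between the marks was −0.21, and in the 1218 bins with 6 or more it was 0.19. By class, rho was 0.02 in bins without a protein-coding gene, −0.20 with 1 to 2, 0.07 with 3 to 5, 0.25 with 6 to 10, 0.20 with 11 to 20 and 0.17 with over 20. Away from chromosome ends and gene-free intervals the positive values stayed between 0.08 and 0.26 from 3 genes upwards. Within chromosomes the coefficient was negative on 23 of 23, from −0.32 to −0.03. With the peaks whose −log10 q was at least 5 in both lists it was 0.03 over all bins, and positive in each gene class (0.07 to 0.18). It was also 0.03 with only the H3K9me3 list cut, to 3978 peaks, and −0.15 with only the H3K4me3 list cut, to 15479. The median −log10 q of H3K9me3 peaks was 3.28 and that of H3K4me3 peaks 35.4.

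In the full lists, gene density separated the marks most clearly at its low end. With only the peaks of −log10 q of at least 5, rho of H3K9me3 count with protein-coding genes was −0.05 in place of −0.23. The values below are from the full lists. In the 384 bins without a protein-coding gene H3K9me3 averaged 8.54 ± 5.73 peaks (SD over bins) and H3K4me3 0.18 ± 0.61. With 1 to 2 genes (652 bins) the means were 6.64 ± 5.74 and 1.13 ± 1.53. From 3 genes upwards H3K9me3 levelled off, at 4.604, 4.49, 4.63 and 5.49 peaks in the classes of 3 to 5, 6 to 10, 11 to 20 and over 20 genes, while H3K4me3 climbed through 3.81, 6.79 and 12.4 to 23.995. The share of bins with H3K9me3 and no H3K4me3 fell from 85.9% without a gene to 47.7% with 1 to 2, 7.46% with 3 to 5 and 1.99% with over 20. At least 10 H3K9me3 peaks were found in 36.5% of bins without a gene, in 7.74% of those with 6 to 10, and in 17.4% of those with over 20. The last share was 11.9% without chromosome 19 (160 bins), and the median was 4 peaks in each class from 3 genes upwards, so that the rise lay in the fullest bins and partly in chromosome 19.

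**Figure D2:**
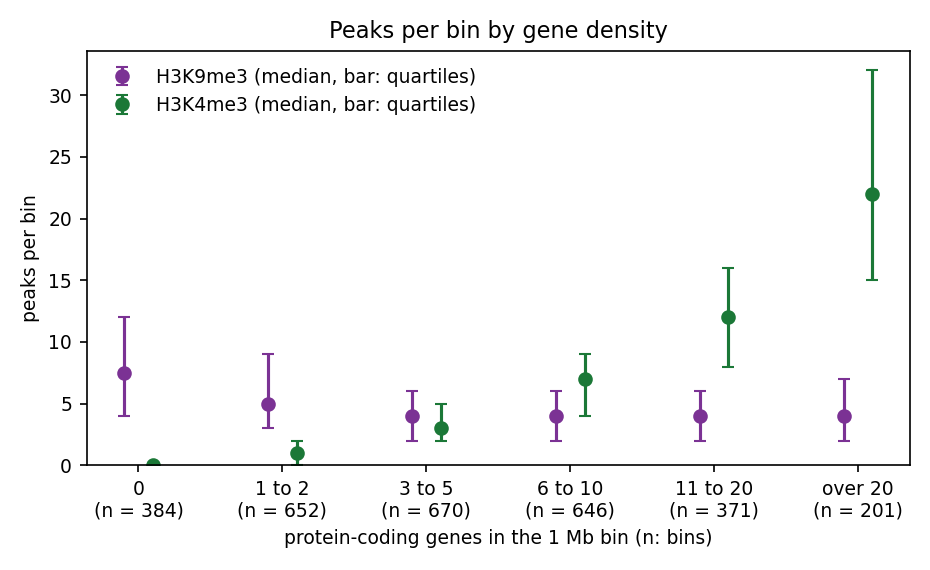
Points are medians and bars quartiles of the peak count per 1 Mb bin, for bins classed by their number of protein-coding genes (horizontal axis, with the number of bins). H3K4me3 rises with gene number from a median of 0 to 22, and H3K9me3 is highest without genes (7.5) and flat at 4 from 3 genes upwards.

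The bin size set how much of this looked like co-occurrence. In the same territory divided into bins of 1 kb, 1.90% of H3K9me3 bins also held H3K4me3, and the share of bins with both was 3.29 times the product of the marks' separate shares. That ratio was 1.28 at 5 kb, 0.98 at 10 kb, lowest at 50 kb (0.87) and 0.90 at 100 kb, and came back to 0.995 at 1 Mb, where 94.2% of bins held H3K9me3 and 74.4% held H3K4me3. Thus the marks met more often than the product at 1 kb, less often at 50 and 100 kb, and at 1 Mb presence alone carried little. The product takes no account of gene density, and no chance test was made.

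**Figure D3:**
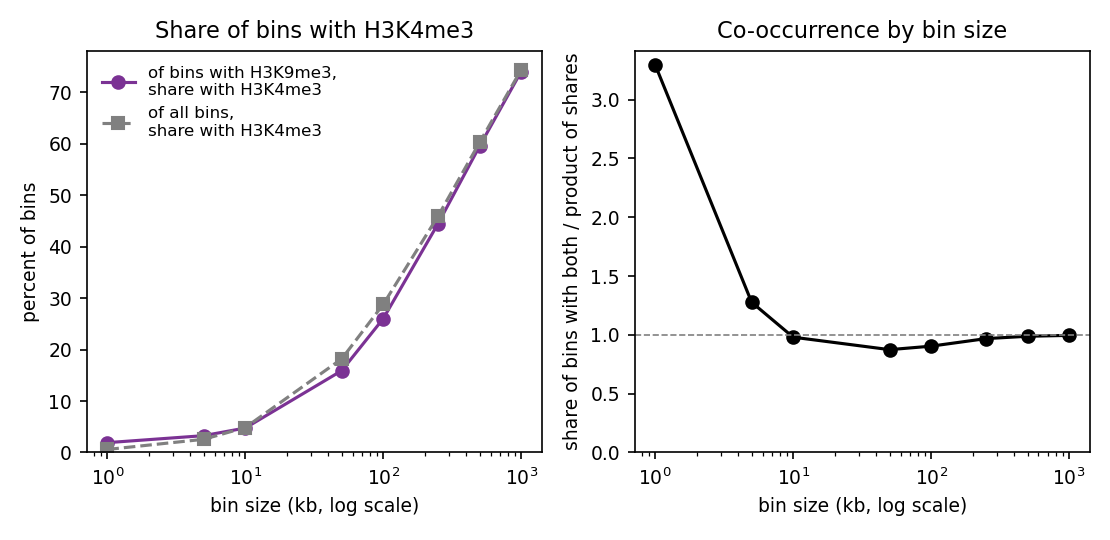
Left, the percent of bins with H3K9me3 that also hold H3K4me3 (circles) and of all bins that hold H3K4me3 (squares), by bin size on a log axis. Right, the share of bins with both marks divided by the product of the marks' separate shares, which is 3.29 at 1 kb, lowest at 50 kb (0.87) and 0.995 at 1 Mb.

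Distances told the same from the peaks. The median H3K9me3 summit lay 236 kb from the nearest H3K4me3 summit, 76.7 kb in bins with both marks and 1093 kb in bins with H3K9me3 alone. Only 430 (2.62%) lay within 1 kb, 17.4% lay between 10 and 50 kb, 43.2% between 100 kb and 1 Mb, and 20.2% more than 1 Mb away. In the other direction 82 H3K4me3 summits (0.477%) had no H3K9me3 summit within 1 Mb. Median fold enrichment of H3K9me3 was 4.63 in bins with both marks and 4.55 where it stood alone. Its peaks lay in the span of a protein-coding gene in 35.3% and 19.1% of cases.

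Overlap with an H3K4me3 peak was found for 406 H3K9me3 peaks. They were spread over 333 bins, 284 of which held a single one. POLR2A overlapped 365 of the 406 (89.9%) and POLR1A peaks 254 (62.6%), against 2.04% and 1.94% of the 16008 other H3K9me3 peaks. Seen from H3K4me3, POLR2A overlapped 90.9% of the peaks that met H3K9me3 and 54.8% of those that did not. The H3K9me3 peaks concerned had a median fold of 5.02, against 4.60 for the others. The part played by open chromatin or by the transposase at such sites was not tested.

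Bins crowded with a mark showed where exclusion and co-occurrence were strongest. A count of at least 10 peaks was called high, which 459 bins reached for H3K9me3 (15.7%) and 578 for H3K4me3 (19.8%). On either side of that threshold, 124 bins held 9 and 94 held 10 H3K9me3 peaks, and 80 and 79 bins held as many H3K4me3 peaks. H3K9me3 was high with no H3K4me3 peak in 242 bins (8.28%), which held 22.04% of all H3K9me3 peaks and of which 124 held no protein-coding gene. The reverse, high H3K4me3 with no H3K9me3 peak, was found in 22 bins (0.752%) with a median of 14 protein-coding genes. Both were high in 77 bins (2.63%) with a median of 16 protein-coding genes and 19 POLR2A peaks. With peaks of −log10 q of at least 5, these counts became 10, 160 and 5.

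Chromosome ends held many of the bins that were high in both. Of the 77, 26 (33.8%) were among the 141 bins (4.82% of all) within 2 Mb of the first or last gene of a chromosome, and none of the 22 bins with H3K4me3 alone was. By this rule the 141 end bins include an acrocentric short-arm bin, chromosome 22 from 11 to 12 Mb. End bins averaged 8.61 ± 6.73 H3K9me3 and 12.4 ± 14.98 H3K4me3 peaks (SD over bins), and both marks went up together there (rho 0.19). The 167 bins beside gene-free intervals of at least 1 Mb averaged 8.07 ± 8.35 H3K9me3 but 2.63 ± 4.30 H3K4me3 peaks. The 2616 interior bins averaged 5.30 ± 4.30 and 5.73 ± 7.34 (rho −0.18).

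The bins fullest of H3K9me3 lay beside centromeres, on acrocentric short arms, at a chromosome end and in stretches of 1 or 2 genes. Chromosome 4 from 49 to 50 Mb held the most, 41 peaks with 4 of H3K4me3, and its only protein-coding gene was CWH43. It also held 33 POLR1A and 12 POLR2A peaks, and 4 of its H3K9me3 peaks overlapped H3K4me3. Chromosome 21 followed with 39 peaks from 9 to 10 Mb and 32 from 10 to 11 Mb, around TPTE, a testis phosphatase gene with 2 H3K9me3 peaks in its span. Chromosome 14 from 19 to 20 Mb held 36 peaks and no H3K4me3 over 9 protein-coding genes. Chromosome 7 from 57 to 58 Mb held 29 with ZNF716 and ZNF479, and chromosome 22 from 11 to 12 Mb held 29 with no protein-coding gene, both without H3K4me3. These stretches hold repeats and multi-copy genes, and how reads from repeated sequence were treated is not given in the sources used here, so their counts are uncertain.

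Away from centromeres and short arms, 4 bins of these rankings had 29 peaks or more, the first of them at a chromosome end. Chromosome 4 from 0 to 1 Mb held 33 H3K9me3 and 14 H3K4me3 peaks: ZNF721, ZNF595 and ZNF718, zinc finger genes, had 5, 4 and 3 H3K9me3 summits in their spans, and ZNF721 also had H3K4me3 at an end (fold 13.9), in a peak shared with its neighbour PIGG. PCGF3, a Polycomb subunit gene, had H3K4me3 at an end (12.9) and no H3K9me3. No peak overlapped between the marks in that bin, and the median H3K9me3 summit lay 135 kb from H3K4me3. Chromosome 5 from 3 to 4 Mb held 30 H3K9me3 peaks and no H3K4me3 around IRX1, a homeobox gene that itself had neither mark. Chromosome 8 from 138 to 139 Mb also held 30 peaks and no H3K4me3, of which FAM135B and the collagen gene COL22A1 had 13 and 9 in their spans. Chromosome 15 from 27 to 28 Mb held 29 peaks and no H3K4me3, where GABRG3, a GABA receptor subunit gene, had 17 and OCA2, a melanosome transporter gene, had 6.

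Bins fullest of H3K4me3 were gene-dense and had 2 to 9 H3K9me3 peaks, with 1 exception among the 8. Chromosome 19 from 1 to 2 Mb held 70 H3K4me3 and 8 H3K9me3 peaks over 38 protein-coding genes, among them REXO1 (H3K4me3 fold 13.2 at an end). Chromosome 11 from 65 to 66 Mb held 66 and 3 over 49 genes, with POLA2, a DNA polymerase alpha subunit gene (14.5), and the chromatin reader gene DPF2 (15.3). Chromosome 1 from 1 to 2 Mb held 61 and 8. Chromosome 17 from 75 to 76 Mb held 50 and 7, and 5 of those 7 overlapped H3K4me3. The exception was chromosome 9 from 137 to 138 Mb, with 49 H3K4me3 and 16 H3K9me3 peaks. There EHMT1, itself a gene of an H3K9 methyltransferase, had 2 H3K9me3 summits in its span and H3K4me3 at an end (9.47), and PNPLA7, a lysophospholipase gene, had 5 H3K9me3 summits in its span and no H3K4me3 at its ends.

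H3K4me3 without H3K9me3 was led by chromosome 1 from 156 to 157 Mb, with 34 H3K4me3 and 32 POLR2A peaks over 39 protein-coding genes. Its strongest ends belonged to SLC25A44 (17.3), HDGF, a growth factor gene (17.1), SSR2 (13.8) and RAB25, an epithelial GTPase gene (13.7). Chromosome 8 from 22 to 23 Mb held 32 H3K4me3 peaks, with the zinc transporter gene SLC39A14 (15.02). On chromosome 11 a pair of neighbouring bins from 46 to 48 Mb held 18 and 19, with AMBRA1, an autophagy gene (16.9), CKAP5, a microtubule polymerase gene (12.7), and NUP160, a nuclear pore gene (15.1). Chromosome 9 from 121 to 122 Mb held 19, with GSN, the gelsolin gene (13.5). Chromosome 1 from 149 to 150 Mb held 16, with the histone genes H2AC18 and H4C15 sharing a peak of 20.8.

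Among bins high in both, each mark mostly had its own place. Chromosome 8 from 144 to 145 Mb led with 20 H3K9me3 and 41 H3K4me3 peaks: ARHGAP39 had 6 H3K9me3 summits in its span and no H3K4me3 at its ends, CYC1, the cytochrome c1 gene, had H3K4me3 (13.1) and a weaker H3K9me3 peak (4.12) at an end, and ZNF250 had both (11.5 at an end, 6.83 in the span). Chromosome 17 from 82 to 83 Mb held 18 and 40, with 5 H3K9me3 summits in RAB40B and 4 in FN3K. Chromosome 19 from 44 to 45 Mb held 17 and 30 in a zinc finger cluster, where ZNF180 had 4 H3K9me3 summits in its span and H3K4me3 at an end (18.8), ZNF235 had H3K4me3 (16.9) without H3K9me3, and ZNF223 and ZNF284 each had H3K9me3 (5.04 and 5.03) without H3K4me3. Chromosome 12 from 56 to 57 Mb held 17 and 30, with TIMELESS, a replication fork gene (H3K4me3 17.9, H3K9me3 3.44). Chromosome 11 from 10 to 11 Mb held 17 and 19, 7 of the H3K9me3 summits being in SBF2. Over all 77 bins, 82.2% of H3K9me3 summits lay within 100 kb of H3K4me3 and 6.37% of peaks overlapped it. Over the whole H3K9me3 list these shares were 36.6% and 2.47%, so overlap was rare but more frequent in the 77 bins.

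H3K9me3 without H3K4me3 formed 352 runs of neighbouring bins, 192 of them of 1 bin and 24 of 5 or more. The longest covered 14 bins of chromosome 5 from 17 to 31 Mb, with 134 H3K9me3 peaks (6 to 19 per bin), 3 POLR2A peaks and no POLR1A peak. It held the neuronal cadherin genes CDH18, CDH12, CDH10 and CDH9, the TAF11L copies, BASP1 and PRDM9, a meiotic H3K4 methyltransferase gene. The next runs held 4 to 8 protein-coding genes each, named here except for those with only a LOC number. Chromosome 13 from 61 to 72 Mb (75 peaks) held the protocadherin genes PCDH20 and PCDH9, KLHL1 and DACH1, and from 81 to 91 Mb (59 peaks) SLITRK1, SLITRK6 and SLITRK5. The run on X from 87 to 96 Mb (38 peaks) held KLHL4, CPXCR1, TGIF2LX, PABPC5, PCDH11X, NAP1L3 and FAM133A. On chromosome 4 from 59 to 67 Mb (76 peaks) lay ADGRL3, TECRL and EPHA5. Chromosome 2 from 76 to 84 Mb (54 peaks) held LRRTM4, LRRTM1, CTNNA2 and the lectin genes REG3G, REG1B, REG1A and REG3A. Chromosome 3 from 73 to 81 Mb (50 peaks) held PPP4R2, EBLN2, PDZRN3, CNTN3, FRG2C, ZNF717 and the axon guidance receptor genes ROBO2 and ROBO1. The densest long run was chromosome 7 from 57 to 64 Mb, with 134 peaks in 7 bins beside the centromere.

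Gene-rich bins with H3K9me3 and no H3K4me3, picked after the values were seen, mostly held clusters of tissue-specific families and multi-copy genes. Chromosome 8 from 7 to 8 Mb held the most, 42 protein-coding genes, among them defensins and copies of FAM90A and USP17L, with a single H3K9me3 peak. Chromosome 21 from 30 to 31 Mb held 34 protein-coding genes, nearly all KRTAP genes of hair keratin-associated proteins, with 13 H3K9me3 peaks. Chromosome 11 from 55 to 56 Mb and from 56 to 57 Mb held 21 and 27 genes, mostly olfactory receptors, with 14 and 6 H3K9me3 peaks. Chromosome 14 from 94 to 95 Mb held the SERPINA cluster with 6. Neither mark was found in 3 bins of chromosome 6 around the MHC, from 29 to 30, 30 to 31 and 32 to 33 Mb. They held 23, 34 and 31 protein-coding genes and together 1 POLR2A and no POLR1A peak. Their genes were not only such families, with TUBB, ABCF1, VARS2 and BRD2 among them. The H3K4me3 list held 67 peaks and the H3K9me3 list 9 on alternate contigs of chromosome 6, and their part in these empty bins was not tested. On X, 10 of 155 bins held neither mark.

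Chromosomes differed in both marks, and not only in opposite directions. Chromosome 19 had the highest mean of each, with 8.42 ± 5.94 H3K9me3 and 21.6 ± 16.5 H3K4me3 peaks per bin (SD, n = 59 bins), and held 16 of the 77 bins high in both. X had the lowest of each, 2.39 ± 2.53 and 2.97 ± 3.90 (n = 155 bins), and the largest share of bins with H3K4me3 alone (16.1%). Chromosome 21 came near chromosome 19 in H3K9me3 (8.38 ± 7.67, n = 42 bins) with 3.76 ± 4.95 H3K4me3, and 42.9% of its bins held H3K9me3 alone. H3K9me3 peaks outnumbered H3K4me3 peaks on 12 of 23 chromosomes, by up to 2.23 times on chromosome 21 and 2.05 on chromosome 13, and the ratio was lowest on chromosome 19 (0.39). These SDs span bins, and for each mark neighbours in the order of means differed by less than the SD of either.

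**Figure D4:**
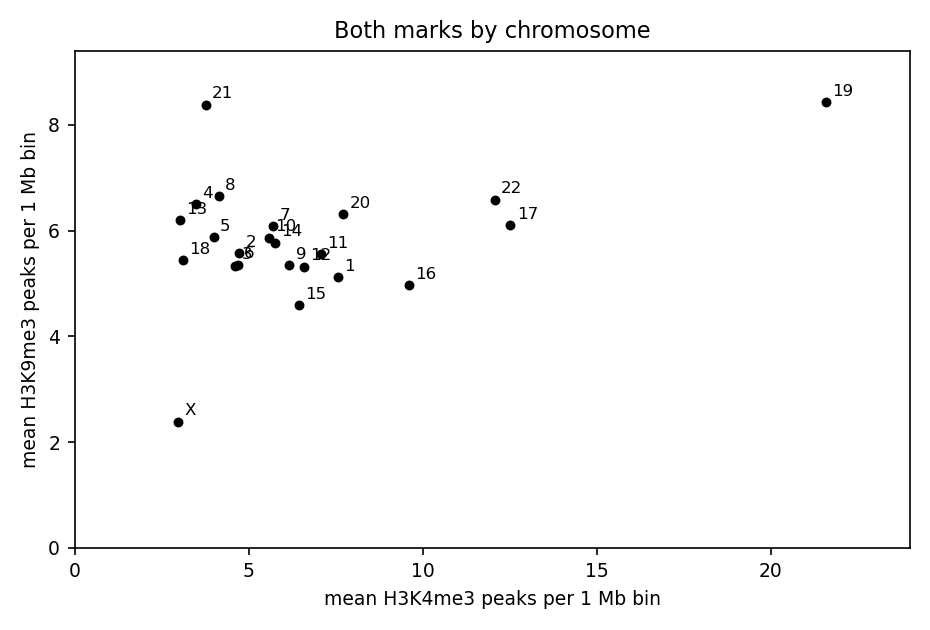
Mean number of H3K9me3 peaks (vertical axis) against H3K4me3 peaks (horizontal axis) per 1 Mb bin, for 23 chromosomes, each labelled. Chromosome 19 is highest in both (8.42 and 21.6), X lowest in both (2.39 and 2.97), and chromosome 21 pairs a high H3K9me3 mean (8.38) with 3.76 H3K4me3 peaks.

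Gene families showed which genes stood in these bins. Of all 19821 protein-coding genes, 12% lay in bins high in H3K9me3 and 50.4% in bins high in H3K4me3. Bins high in both held 7.27% and bins high in H3K9me3 without H3K4me3 held 1.37%. Bins with H3K9me3 alone, at any count, held 4.3%. An H3K9me3 summit was in the span of 13.1%, H3K4me3 within 1 kb of an end (either end, since the table has no strand) of 54.6%, and both of 6.86%. A summit in the span was found for 2.80% of genes under 20 kb, so 13.1% is no measure for lists of short genes. Families sit in few bins and their members share them, so the counts below are descriptions. In bins high in H3K9me3 at a −log10 q of at least 5 lay 0.56% of all protein-coding genes (22 bins). Those bins held 15.6% of defensins, 2.70% of UGT and cytochrome P450 genes and 2.06% of olfactory receptors. They also held 1.81% of zinc finger genes outside chromosome 19, and 0% of the other lists. The defensins were the 7 in 1 bin, chromosome 20 from 31 to 32 Mb, and only 1 defensin had H3K9me3 in its span.

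Zinc finger genes, whose proteins include repressors that recruit H3K9me3, stood often in bins where both marks were high. On chromosome 19, 192 of 251 lay in bins high in H3K9me3 and 162 (64.5%) in bins high in both, within 34 bins. That was the most genes of any list, while clustered protocadherins had a larger share (71.7%). An H3K9me3 summit was in the span of 98, H3K4me3 at an end of 129, and both at 38. ZNF420, ZNF567, ZNF331 and ZNF180 had 4 H3K9me3 summits each, and ZNF431 the highest H3K4me3 fold at an end (24.9). On other chromosomes 82 of 277 lay in bins high in H3K9me3 and 49 (17.7%) in bins high in both, 93 had H3K9me3 in the span and 191 H3K4me3 at an end. ZNF469 and ZNF385D had 11 and 8 H3K9me3 summits and no H3K4me3, while ZNF678 had 8 and H3K4me3 at an end (17.0).

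Clustered protocadherins, neuronal surface proteins, filled only 2 bins: 38 of 53 lay in a bin high in both and the others in a bin with 3 H3K9me3 peaks. The first bin held 10 H3K9me3 peaks, the threshold itself, so that with 1 peak fewer no member would count as high. In all, 19 had H3K9me3 in the span and 1, PCDHGA10, H3K4me3 at an end (8.74). Members of the gamma cluster overlap and share peaks, as PCDHGA1 does with 9. Replication-dependent histone genes had 21 of 68 in bins high in both, but 1 with H3K9me3 in the span (H2BC14) against 42 with H3K4me3 at an end. Their spans were short, with a median of 0.494 kb.

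Long neuronal and adhesion genes stood mostly in bins without H3K4me3. Of 64, 49 (76.6%) lay in bins with H3K9me3 and no H3K4me3, against 4.3% of all protein-coding genes. An H3K9me3 summit was in the span of 60, and H3K4me3 at an end of 10. The median length of the 64 was 1167 kb, longer than a bin, and the part of length in the 49 was not tested. CSMD1 had 34 summits, PCDH15, a hair-cell cadherin, 28, DPP6, a potassium channel partner, 26, and CNTNAP2, a neurexin relative, 25, all without H3K4me3 at an end. DLG2, a synaptic scaffold gene, had H3K4me3 at an end (13.7) and 3 H3K9me3 summits. Gene length went with this: an H3K9me3 summit was in the span of 2.80% of genes under 20 kb, 12.4% of 20 to 100 kb, 37.8% of 100 to 500 kb and 83.8% of at least 500 kb. Per Mb of span the counts were 3.69, 3.39, 3.61 and 5.14. Among genes of at least 500 kb, those with H3K4me3 at an end held 3.69 H3K9me3 peaks per Mb and those without 5.71.

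Olfactory receptor genes, used mainly by sensory neurons of the nose, had 110 of 389 in bins high in H3K9me3 and 68 in bins with H3K9me3 alone, but only 12 had a summit in their short spans and 1, OR51B5, H3K4me3 at an end. Keratins and keratin-associated proteins had 48 of 149 in bins high in H3K9me3, 1 with H3K9me3 in the span, and H3K4me3 at an end of 6, among them KRT8 and KRT18 (shared, 12.8) and KRT19 (10.0), keratins of simple epithelium. Glutamate and GABA receptor subunits had 10 of 35 in bins high in H3K9me3 and 12 in bins with H3K9me3 alone. Defensins had 22 of 45 in bins with H3K9me3 alone and H3K4me3 at none. Of the 22, 15 and 5 lay in a pair of neighbouring bins of chromosome 8 that held 1 H3K9me3 peak each.

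On the H3K4me3 side stood housekeeping genes. Cytosolic ribosomal protein genes had H3K4me3 at an end of 75 of 85 and H3K9me3 in the span of 3, of which RPL7 and RPS27A also had H3K4me3 (11.6 and 9.01). Those 3 make 3.53%, near the 2.80% of all protein-coding genes under 20 kb, and the median length of the list was 5.035 kb. Proteasome subunit genes had H3K4me3 at an end of 32 of 39, led by PSMC1 (17.8), and none lay in a bin high in H3K9me3. HOX genes, which pattern the body axis, had H3K4me3 at an end of 21 of 39 (53.8%), near the 54.6% of all protein-coding genes. HOXB13 (11.7) was among them. H3K9me3 was in the span of none of the HOX genes, which are short (median 3.785 kb). X-linked cancer testis antigen genes had H3K4me3 at 1 of 89 (MAGEB2) and H3K9me3 in the span of 3. Type I interferon genes had neither mark at any of 17, although 16 lay in a bin high in H3K4me3. None of 19 MHC class I and II genes had either mark on the chromosome itself. Peaks on alternate contigs of chromosome 6 (67 of H3K4me3) were not counted, so a lack of either mark at these genes is uncertain. UGT and cytochrome P450 genes had 14 of 74 with each mark.

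**Figure D5:**
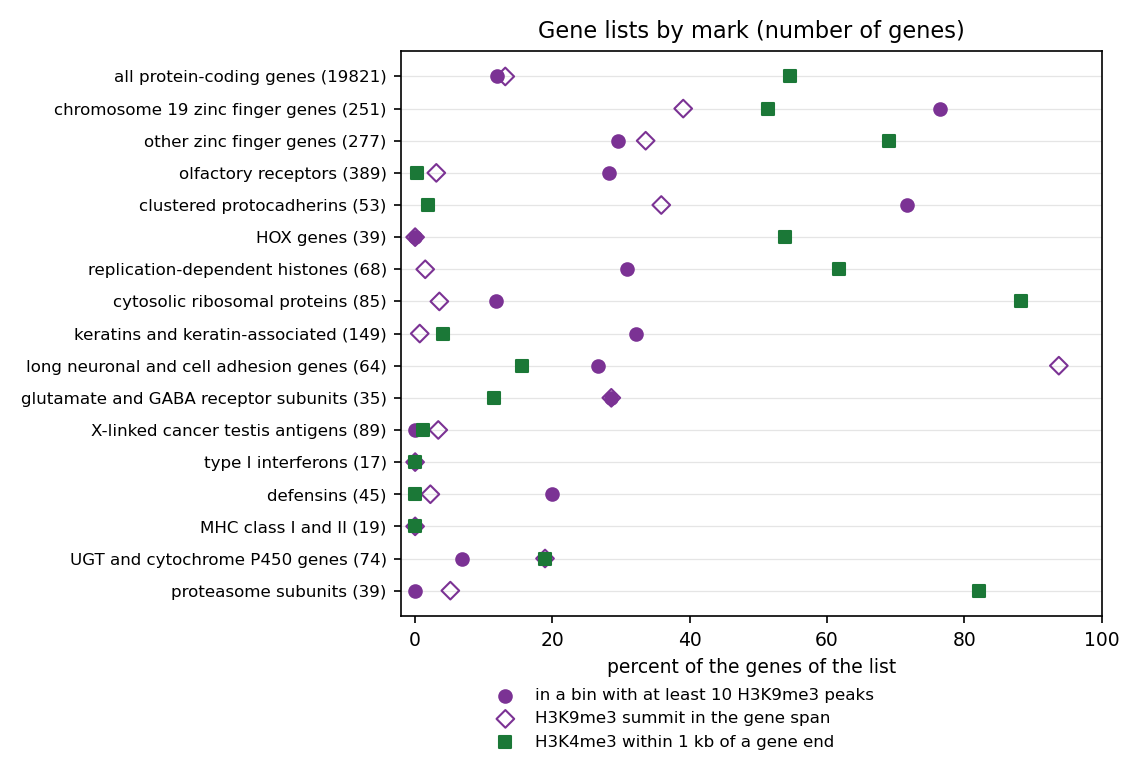
For each gene list (number of genes in brackets), the percent of its members in bins with at least 10 H3K9me3 peaks (filled circles), with an H3K9me3 summit in the span (open diamonds) and with H3K4me3 within 1 kb of an end (squares). Chromosome 19 zinc finger genes reach 76.5% by bin and 51.4% by H3K4me3, long neuronal genes 93.75% by span, and ribosomal protein genes 88.2% by H3K4me3.

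The lists were checked against the labelled cell type by H3K4me3 at gene ends. Of 19 intestinal epithelial markers 13 had it (68.4%), against 54.6% of all protein-coding genes, so the check is a weak one. They included EPCAM (15.4), KRT8 (12.8), CDX2 (10.8) and CDH1 (9.60), while VIL1, CDX1, ASCL2, CLDN7, KRT20 and LGALS4 had none. H3K4me3 was at 0 of 8 leukocyte, 1 of 8 fibroblast (COL1A1), 3 of 7 neuronal (MAP2, SYT1, TUBB3) and 1 of 5 hepatocyte markers (APOA1).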

How the data were processed

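CUT&Tag peaks of H3K9me3, H3K4me3, POLR1A and POLR2A in HCT116 cells came as 4 lists in MACS2's narrowPeak format, per the peak names. Fold enrichment is a linear ratio, −log10 q is per peak, and the score is scaled from −log10 q, all as the authors deposited them. The H3K4me3 list belongs to 1 sample and the others name no replicate. The submitters' processing notes name the builds GRCh38 and hg38 and tools without roles. Not given in the sources used here are the caller's version, settings and control, the aligner, pooling and the treatment of repeat reads. Depth is unknown from peak lists.

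Peaks were counted in 1 Mb bins by summit with Python 3.11.15, pandas 2.3.3, numpy 2.4.6 and scipy 1.17.1, and genes by midpoint from a RefSeq table of GRCh38.p14 (58419 genes, of which 19821 protein-coding; 679 on scaffolds left out). Counting was tested on simulated data. With 1 list per target no test between samples was possible. Named were the 8 leading bins by each ranking, up to 4 genes per mark in a bin and per gene list, and the 8 longest runs. The text gives part of these. Bin rules, lists and markers were chosen with earlier results of these data known. Alternatives varied the peak threshold, list length, bin size and start, assignment, margins, the threshold for a high bin and the chromosomes used.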

Additional observations from a re-analysis of the deposited data

Results flagged for a closer look

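Peaks on sequences other than chromosomes 1 to 22 and X entered no comparison. The H3K9me3 list held 795 such peaks and the H3K4me3 list 266, without control samples to set them against.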

How the results depend on the processing

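With peaks of −log10 q of at least 5, bins with both marks made up 45.3%, rho between the marks was 0.0275 in place of −0.15, rho of H3K9me3 with genes was −0.0512, bins high in H3K9me3 without H3K4me3 were 10, the reverse 160 and bins high in both 5. Only 3978 H3K9me3 peaks remained, and members in bins high in H3K9me3 fell to 1.81% (from 29.6%) for other zinc finger genes, 2.06% (28.3%) for olfactory receptors, and 0% for chromosome 19 zinc finger genes, protocadherins, histones, ribosomal proteins, keratins, long neuronal genes and receptor subunits. With both lists cut to that same number of strongest peaks, chosen after seeing the data, the share was 31.2%, the coefficients 0.0219 and −0.0512, and the counts 15 for H3K9me3 without H3K4me3 and 0 for both. With the threshold on the H3K9me3 list alone, also added after seeing the data, rho between the marks was 0.0300, and on the H3K4me3 list alone −0.148. Bins of 500 kb gave 48.2%, 683, 257 and 206, and bins of 2 Mb 85.8%, 69, 1 and 28, with the threshold for a high bin scaled to size. A threshold of 5 peaks gave 498, 64 and 536, and of 20 peaks 42, 2 and 1. With empty bins included the share was 67.0%, rho between the marks −0.0594 and with genes −0.11. Without chromosome ends and gene-free margins 49 bins were high in both. Under alternatives 36 values moved, 3 changed sign and 53 stayed close, the last among others with equal list length, shifted bins, bins touched, covered bases, and without chromosome 19 or X. The cause of the shifts was not tested.

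No paired analysis was possible because the lists carry no values per replicate, and for the same reason no replicate was left out and the planned replicate block was not run.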
